A study of Homo sapiens with 12 samples.

Results

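The caveolin and cavin genes CAV1, CAV2, CAVIN1, CAVIN2 and CAVIN3 were described in 12 libraries of A549 cells, a cell line from a human lung adenocarcinoma. The members were found by gene symbol, and they make up 5 of the 40605 rows of the count table. Every cell carried a DYRK1B transgene under doxycycline control, coding for the wild-type protein kinase (WT) or for its Y273F form. Cultures of both lines received 2 µg/ml doxycycline, which switches the transgene on, or no doxycycline (control). They were grown for 7 days. Line and treatment give 4 groups of 3 libraries. The libraries come from independent populations grown in parallel and share 1 batch label. No line without a transgene was analysed here, and the sources used here do not say whether a line is a single clone.

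Caveolae are small flask-shaped pits of the plasma membrane, rich in cholesterol and sphingolipids, that are abundant in endothelial cells, adipocytes, muscle and alveolar type I cells of the lung. Caveolins are hairpin-shaped membrane proteins that oligomerise and set the curvature of the pit, and cavins form a peripheral coat on its cytoplasmic face. The pits flatten when the membrane is stretched, and they take part in mechanical protection, lipid handling and the sorting of receptors.

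Libraries also carry numbers from 1 to 12 in the labels. Numbers 1 to 3 belong to WT control, 4 to 6 to WT doxycycline, 7 to 9 to Y273F control, and 10 to 12 to Y273F doxycycline, each in replicate order. The sets 1/5/9, 2/6/10, 3/7/11 and 4/8/12 are used below as a second grouping, which no label names as a condition. Because the sets were drawn up with earlier results of these data known, their levels are described with no test.

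Sequences upstream of the start are shown for the members with an entry in the RefSeq promoter table (GRCh38.p14), since 4 of the 5 members were highest in the same 3 libraries. CAV1, CAV2 and CAVIN2 had an entry, 3 of 5 members, and CAVIN1 and CAVIN3 had none. Each run gives the 250 bases before the outermost RefSeq start, 5′ to 3′ on the strand of the gene. Capitals mark the letters GGGCGG on either strand, a motif of SP and KLF factors, or GGAATG on either strand, a motif of TEAD factors. The windows are chr7:116524759-116525008 (plus strand) for CAV1, chr7:116499488-116499737 (plus strand) for CAV2 and chr2:191847089-191847338 (minus strand) for CAVIN2.
CAV1: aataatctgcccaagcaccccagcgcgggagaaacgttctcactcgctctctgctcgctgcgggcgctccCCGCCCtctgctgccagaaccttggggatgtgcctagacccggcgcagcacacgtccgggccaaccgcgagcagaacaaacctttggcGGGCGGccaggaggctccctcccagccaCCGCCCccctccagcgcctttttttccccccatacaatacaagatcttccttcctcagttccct
CAV2: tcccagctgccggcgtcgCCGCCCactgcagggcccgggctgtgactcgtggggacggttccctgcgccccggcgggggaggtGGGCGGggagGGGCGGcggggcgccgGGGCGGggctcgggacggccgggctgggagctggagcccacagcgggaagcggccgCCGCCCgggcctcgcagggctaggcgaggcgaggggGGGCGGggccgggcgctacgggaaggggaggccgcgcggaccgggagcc
CAVIN2: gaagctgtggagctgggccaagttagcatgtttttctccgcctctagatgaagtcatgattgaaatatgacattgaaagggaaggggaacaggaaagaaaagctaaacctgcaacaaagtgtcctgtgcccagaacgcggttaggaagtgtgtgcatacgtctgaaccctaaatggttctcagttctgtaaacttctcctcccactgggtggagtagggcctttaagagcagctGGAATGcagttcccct
GGGCGG was found 3 times before CAV1 and 6 times before CAV2, and 42.6% of the 35116 promoter windows of that length held it. GGAATG was found once, before CAVIN2, with its first base 16 bases before the start, and 11.9% of windows held it. The AP-1 letters TGANTCA (6.57% of windows) and the E-box letters CACCTG (17.5%) were searched on both strands and were in none of these 3 windows. The GC content was 63.6% before CAV1, 83.2% before CAV2 and 48% before CAVIN2, beside a median of 58% over all windows. A match describes the letters and not a bound site.

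Total counts per library ran from 2783265 to 22028624, so 3 counts correspond to 0.134 to 1.07 CPM, which are counts scaled to a common library total with TMM factors. DYRK1B itself, the induced gene, was read at 5.80, 3.15 and 5.64 CPM in WT control, 28.6, 4.07 and 7.80 in WT doxycycline, 2.63, 12.6 and 3.22 in Y273F control and 4.65, 4.89 and 20.0 in Y273F doxycycline. The library labelled Y273F control 2 was thus higher than 2 of the 3 libraries labelled doxycycline in either line, and only libraries 4, 8 and 12 exceeded 10 CPM. The reads are 3′ tags, so a transgene without the natural end of DYRK1B would not be counted, and the sources used here do not describe the construct's end. Libraries 2, 6 and 10 stood apart from the rest, with 35.1% of the 13047 tested genes lying wholly above or below the other 9 libraries, against 5.58% for 1/5/9, 2.38% for 3/7/11 and 2.44% for 4/8/12. They carry 3 different labels (WT control 2, WT doxycycline 3 and Y273F doxycycline 1). Since DYRK1B and these sets do not follow the titles, labels may have been exchanged between libraries, and a label may then not give the line or treatment of its library. Which libraries this touches was not tested, and it bears on all 4 comparisons of labelled groups. Group names below are those of the labels.

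CAV1 (ENSG00000105974, GRCh38.p14 chromosome 7, 116525009 to 116561185) codes for caveolin-1, the principal structural protein of caveolae outside muscle. Its level was 368, 337 and 347 CPM in libraries 1, 5 and 9. It was 1381, 1326 and 1274 CPM in libraries 2, 6 and 10, 506, 355 and 323 in 3, 7 and 11, and 695, 517 and 424 in 4, 8 and 12. The 3 libraries 2, 6 and 10 lay above all others, with the lowest of them 1.83-fold above the highest of the other 9, library 4. Libraries 1, 5 and 9 differed by at most 1.09-fold and 2, 6 and 10 by 1.08-fold, while the spread was 1.57-fold in 3/7/11 and 1.64-fold in 4/8/12. In 3/7/11 it came from library 3, labelled WT control 3, at 506 CPM, which lay within the range of 4/8/12.

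CAV2 (ENSG00000105971, chromosome 7, 116499738 to 116508541) codes for caveolin-2, which oligomerises with caveolin-1 and needs it to reach the plasma membrane. It was read at 111, 124 and 109 CPM in libraries 1, 5 and 9 and at 288, 284 and 248 CPM in 2, 6 and 10. Libraries 3, 7 and 11 gave 120.1, 98.7 and 99.3 CPM, and 4, 8 and 12 gave 162, 148 and 157. All of 2/6/10 were again above the other 9, by at least 1.53-fold, and all of 4/8/12 were above both remaining sets by at least 1.20-fold. CAV1 and CAV2 are neighbours on the same strand, with starts 25.3 kb apart.

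CAVIN1 (ENSG00000177469, chromosome 17, 42402449 to 42423256) codes for cavin-1, the coat protein without which caveolae do not form. Its level was 288, 334 and 284 CPM in libraries 1, 5 and 9, 1147, 999 and 1209 in 2, 6 and 10, 275, 289.8 and 297 in 3, 7 and 11, and 447, 449 and 414 in 4, 8 and 12. The lowest of 2/6/10 was 2.23-fold above the highest of the others. The 3 libraries of 4/8/12 lay within 1.09-fold of each other and at least 1.24-fold above 1/5/9 and 3/7/11.

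CAVIN2 (ENSG00000168497, chromosome 2, 191834310 to 191847088) codes for cavin-2, which binds phosphatidylserine and shapes the membrane of caveolae. It was read at 16.3, 16.4 and 20.4 CPM in libraries 1, 5 and 9, 30.2, 44.6 and 39.0 in 2, 6 and 10, 27.98, 19.8 and 18.6 in 3, 7 and 11, and 33.4, 24.9 and 28.7 in 4, 8 and 12. It was the member whose sets overlapped most: library 4 at 33.4 CPM exceeded library 2 at 30.2 CPM, so 2/6/10 did not separate from the other 9. Against 1/5/9 alone, 2/6/10 were higher by at least 1.48-fold.

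CAVIN3 (ENSG00000170955, chromosome 11, 6318946 to 6320501) codes for cavin-3, a protein kinase C delta binding protein of the coat, and was the member with the fewest counts. It was read at 5.80, 5.84 and 5.55 CPM in libraries 1, 5 and 9, 27.7, 32.4 and 34.0 in 2, 6 and 10, 5.87, 7.40 and 5.67 in 3, 7 and 11, and 10.3, 7.31 and 5.98 in 4, 8 and 12. These values rest on 22 counts in library 8 to 233 in library 6. The 95% exact Poisson interval, which covers counting error only, ran from 4.58 to 11.1 CPM in library 8 and from 8.05 to 13.0 in library 4, so a difference between libraries 4 and 8 was not detectable at this depth. The lowest of 2/6/10 was 2.69-fold above the highest of the others, the widest gap among the 5 members.

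**Figure D1:**
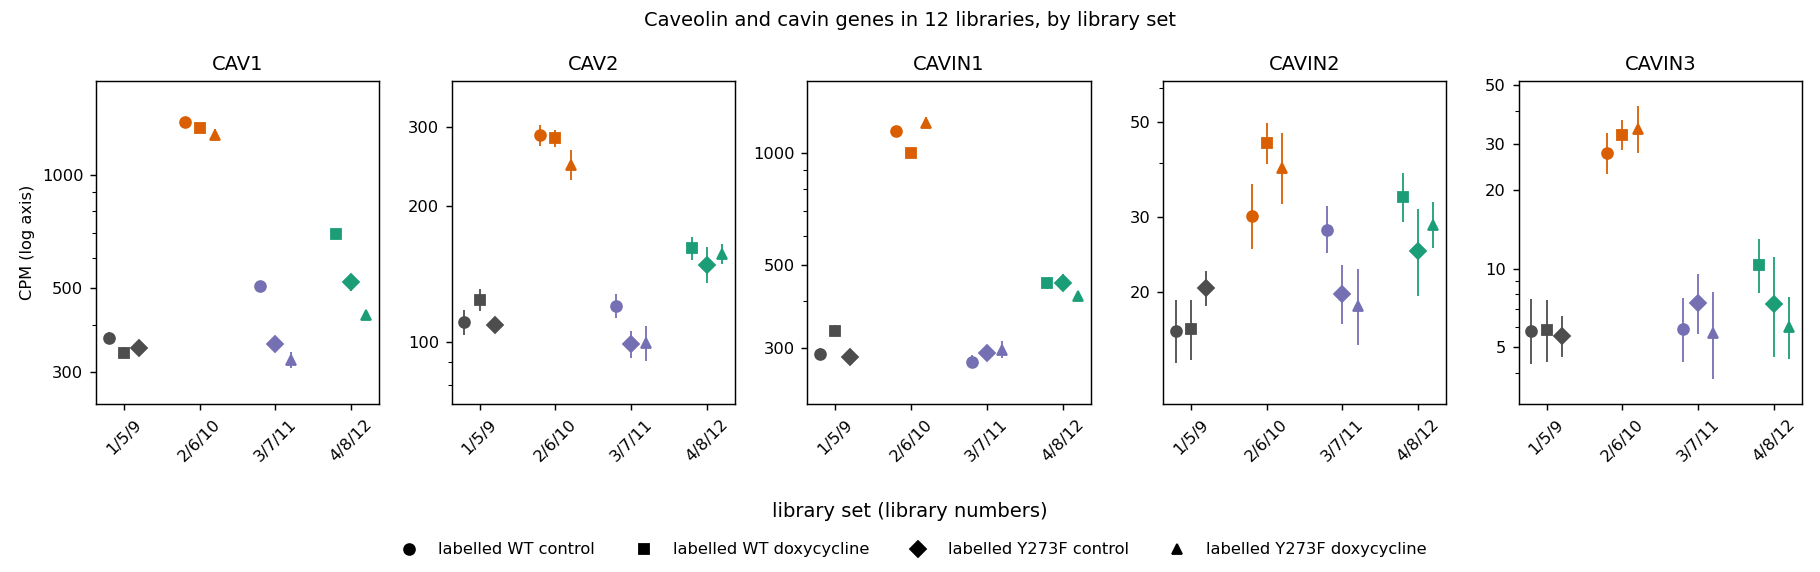
Level of each caveolin and cavin gene in CPM on a log axis (vertical) for the 12 libraries arranged by library set (horizontal), with marker shapes for the labelled groups and bars for the 95% exact Poisson interval. CAV1, CAV2, CAVIN1 and CAVIN3 were above all other libraries in 2, 6 and 10, and CAVIN2 in library 2 (30.2 CPM) was below library 4 (33.4 CPM).

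Of the 5 members, 4 had all of libraries 2, 6 and 10 above the other 9, and none had them below. Among all 13047 tested genes 18.8% were above in this way and 16.3% below. The same 4 members exceeded the other 9 by at least 1.5-fold, which 5.97% of tested genes did. That cutoff lies just under the value of CAV2 (1.53-fold), so the count of 4 depends on it. By this ratio CAVIN3 ranked 229, CAVIN1 317, CAV1 476, CAV2 736 and CAVIN2 3338 among the 13047 tested genes. Against 1/5/9 alone all 5 members were above, as were 27.7% of tested genes. CAV2 and CAVIN1, 2 of 5 members, had all of 4/8/12 above 1/5/9 and 3/7/11, beside 5.44% of tested genes. Between 3/7/11 and 1/5/9 no member separated (9.67% of tested genes were above and 9.98% below). In bulk RNA a lower level of a gene in each cell and fewer cells that express it cannot be told apart.

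The members differed in how far they varied over the 12 libraries. The SD of log2 CPM was 1.04 for CAVIN3, 0.83 for CAVIN1, 0.82 for CAV1, 0.57 for CAV2 and 0.48 for CAVIN2, beside a median of 0.30 over all tested genes. Ordered by mean level, CAV1 (654 CPM) was followed by CAVIN1 (536), CAV2 (162), CAVIN2 (26.7) and CAVIN3 (12.8). The 3′ tag method gives about 1 tag per transcript, so these levels were not divided by gene length, and tagging efficiency may still differ between genes. The muscle members of the families were low. CAV3, muscle caveolin, had 1 count in library 2 and 0 in the other 11 libraries. CAVIN4, the muscle cavin, had 1 to 20 counts, 0.217 to 1.04 CPM, and was not tested.

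Ratios of counts within a library do not depend on library scaling. The ratio of CAV2 to CAV1 was 0.194 to 0.214 in libraries 2, 6 and 10, below its range in every other set (0.300 to 0.368 in 1/5/9, 0.237 to 0.307 in 3/7/11 and 0.232 to 0.369 in 4/8/12). CAVIN1 to CAV1 was below 1 in all 12 libraries, from 0.544 in library 3 to 0.989 in library 5, and its 95% exact binomial interval stayed below 1 in 10 of them. The ranges of this pair overlapped across sets, at 0.783 to 0.989 in 1/5/9, 0.754 to 0.949 in 2/6/10, 0.544 to 0.918 in 3/7/11 and 0.644 to 0.976 in 4/8/12. CAVIN2 to CAVIN1 was 0.0263 to 0.0446 in 2/6/10 and 0.0491 to 0.102 in the other 9 libraries. CAVIN3 to CAVIN1 was 0.0241 to 0.0325 in 2/6/10 and overlapped with 3/7/11, at 0.0191 to 0.0255. Because CAVIN1 and CAV1 set the denominators, these ratios share their values with the levels above.

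**Figure D2:**
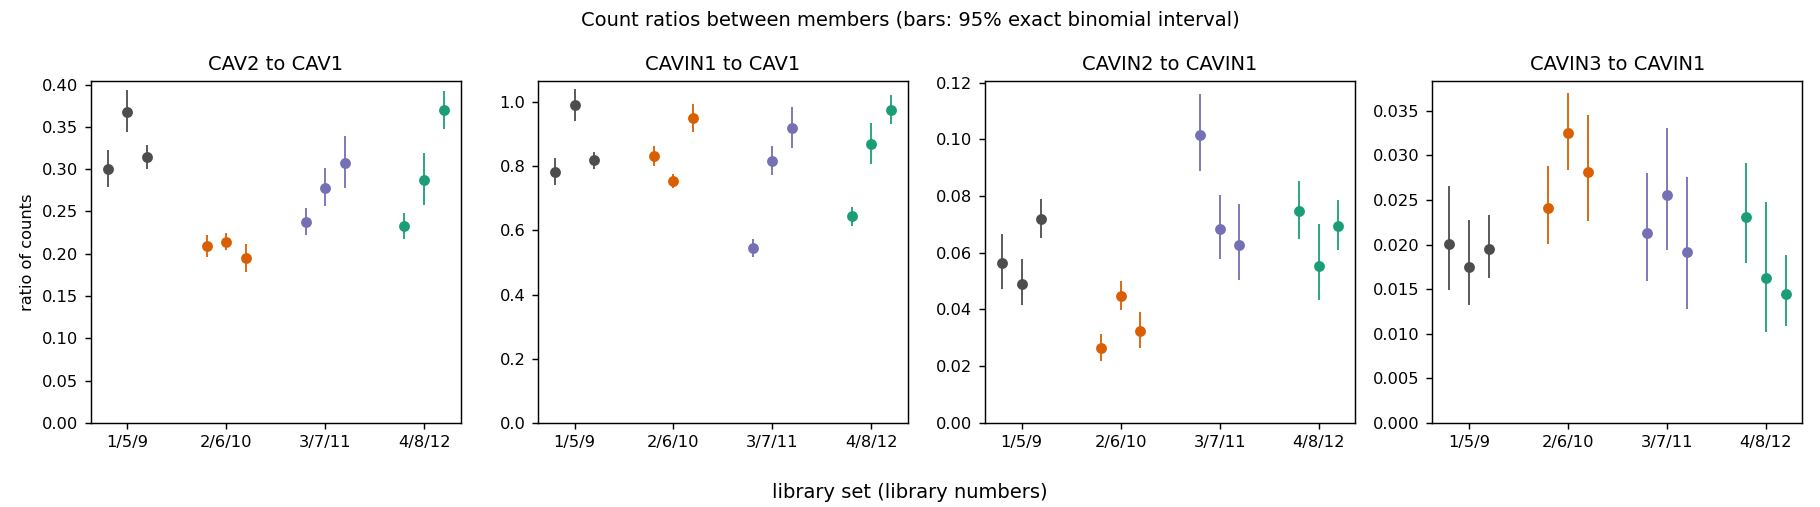
Ratio of counts between pairs of members (vertical, linear axis from 0) in the 12 libraries by library set (horizontal), with bars for the 95% exact binomial interval. CAV2 to CAV1 was lowest in libraries 2, 6 and 10 (0.194 to 0.214), and CAVIN1 to CAV1 was below 1 in every library.

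Genes with the most similar pattern to each member were sought among 10432 genes with a mean of at least 5 CPM, by the root-mean-square difference of log2 CPM centred on the gene's mean over the 12 libraries. CAV1 was nearest to CD40, a TNF receptor family member (0.15), CHST11, a chondroitin sulfotransferase (0.15), and DSE, a dermatan sulfate epimerase (0.17). Its own root-mean-square distance from its mean was 0.78. CAVIN1 was also near CHST11 (0.13), then EEF1A2, a translation elongation factor (0.13), and ADA, adenosine deaminase (0.13). CAV2 was nearest to CTPS1, CTP synthase (0.09), the noncoding SNHG14 (0.09) and SH3KBP1, an endocytic adaptor (0.11). CAVIN2 was nearest to CCN1, a secreted matricellular protein (0.13), LYST, a lysosomal trafficking regulator (0.18), and TAP2, a peptide transporter (0.18). CAVIN3 was nearest to MT2A, a metallothionein (0.20), FSTL1, a secreted follistatin-like protein (0.21), and FAS, a death receptor (0.23). Between members the closest pair was CAV1 with CAVIN1 (0.24) and the most distant CAVIN2 with CAVIN3 (0.69). Among the genes compared, CAVIN1 ranked 39 in nearness to CAV1, and CAV1 ranked 58 in nearness to CAVIN1. CAVIN3 ranked 8709 in nearness to CAVIN2, and CAVIN2 ranked 886 in nearness to CAVIN3.

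By the titles' groups, the members' levels overlapped between all groups. CAV1 averaged 752 ± 549.2 CPM (SD, n = 3) in WT control, 786 ± 501 in WT doxycycline, 406 ± 96.2 in Y273F control and 674 ± 522 in Y273F doxycycline. CAV2 averaged 173 ± 99.8, 190 ± 83.7, 119 ± 26.3 and 168 ± 74.8 CPM in the same order. The Y273F control group, which holds none of libraries 2, 6 and 10, had the lowest mean and the smallest SD for each of these caveolin genes.

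CAVIN1 averaged 570.3 ± 499.7, 593 ± 356, 341 ± 93.7 and 639.8 ± 496.7 CPM in that order. CAVIN2 averaged 24.8 ± 7.48, 31.4 ± 14.2, 21.7 ± 2.79 and 28.8 ± 10.2 CPM. CAVIN3 averaged 13.1 ± 12.6, 16.2 ± 14.2, 6.75 ± 1.04 and 15.2 ± 16.3 CPM. Among the cavin genes too, the Y273F control group had the lowest mean and the smallest SD. The p-values below set differences between group means against the spread between these libraries only. Within each labelled group that spread mixes libraries of different sets.

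**Figure D3:**
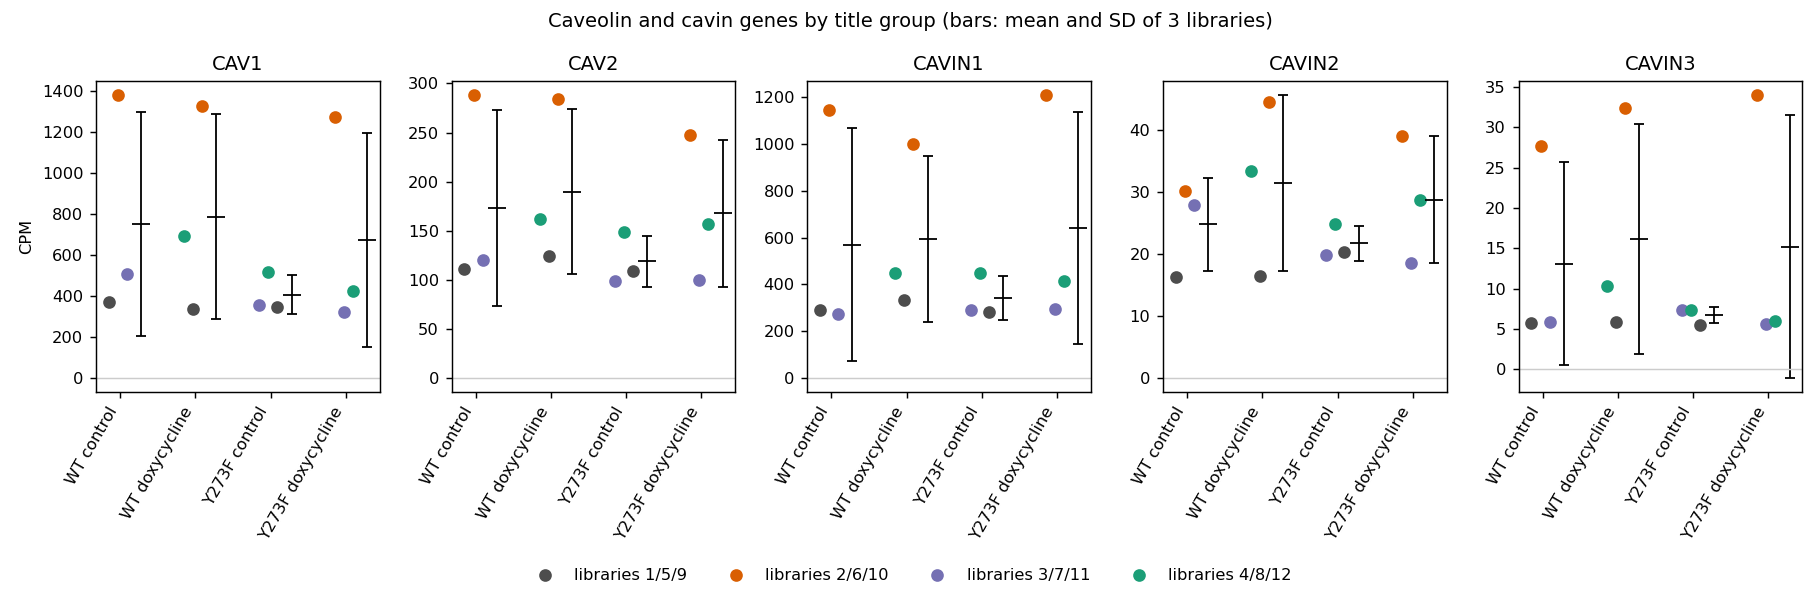
Level of each caveolin and cavin gene in CPM (vertical, linear axis) by labelled group (horizontal), with points for libraries coloured by library set and bars for the mean and SD of 3 libraries. In WT control, WT doxycycline and Y273F doxycycline, a library of 2/6/10 is the highest point of every member, and Y273F control holds none of these libraries.

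Doxycycline against control in the WT line asked what induction of wild-type DYRK1B did. CAV1 was at a log2 fold change of 0.07 (95% interval -1.31 to 1.44), CAV2 at 0.14 (SE 0.43), CAVIN1 at 0.06 (SE 0.65), CAVIN2 at 0.35 (SE 0.36) and CAVIN3 at 0.34 (SE 0.83). None of the 5 passed edgeR's quasi-likelihood test with Benjamini-Hochberg adjustment (adjusted p = 1.000), and neither did any of the 13047 genes (0% called, 118 at an unadjusted p under 0.05). DESeq2 called 0 genes (110 at an unadjusted p under 0.05) and limma-voom 0 (145). No member's groups separated, beside 3.2% of tested genes. Without WT control 1, WT control 3 or WT doxycycline 3, the estimates of CAV1, CAV2, CAVIN1 and CAVIN3 turned negative. Without WT control 2 they were 0.85, 0.72, 1.07 and 1.46 in that order, and over all single libraries left out CAVIN2 ran from 0.0078 to 0.66. Without libraries 2, 6 and 10, CAV1 was at 0.24 (SE 0.31), CAV2 at 0.31 (SE 0.24), CAVIN1 at 0.47 (SE 0.24), CAVIN2 at 0.15 (SE 0.35) and CAVIN3 at 0.45 (SE 0.32), each with a 95% interval that included 0 and an edgeR adjusted p of 0.999.

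Doxycycline against control in the Y273F line asked the same of the mutated kinase. CAV1 was at 0.73 (95% interval -0.65 to 2.11), CAV2 at 0.50 (SE 0.44), CAVIN1 at 0.91 (-0.53 to 2.35), CAVIN2 at 0.40 (SE 0.37) and CAVIN3 at 1.11 (-0.82 to 3.05). No member and none of the 13047 genes passed edgeR's quasi-likelihood test with Benjamini-Hochberg adjustment (adjusted p = 0.990, 0% called, 215 at an unadjusted p under 0.05; DESeq2 called 0 genes with 214 and limma-voom 0 with 199). No member's groups separated, beside 10.9% of tested genes. Without library 10, which is Y273F doxycycline 1, CAV1 was at -0.12, CAV2 at 0.11, CAVIN1 at 0.06, CAVIN2 at 0.14 and CAVIN3 at -0.19. Without libraries 2, 6 and 10, CAV1 was at -0.12 (SE 0.29), CAV2 at 0.12 (SE 0.22), CAVIN1 at 0.06 (SE 0.22), CAVIN2 at 0.16 (SE 0.32) and CAVIN3 at -0.18 (SE 0.31).

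The doxycycline effect in the WT line less that in the Y273F line, fitted as an interaction, was -0.66 for CAV1 (95% interval -2.61 to 1.28), -0.36 for CAV2, -0.85 for CAVIN1, -0.06 for CAVIN2 and -0.77 for CAVIN3. It passed edgeR's quasi-likelihood test with Benjamini-Hochberg adjustment for no member and no gene (adjusted p = 1.000, 0% called, 160 at an unadjusted p under 0.05; DESeq2 called 0 with 141 and limma-voom 0 with 154). Without libraries 2, 6 and 10 it was 0.36 for CAV1, 0.18 for CAV2, 0.40 for CAVIN1, -0.01 for CAVIN2 and 0.64 for CAVIN3. The sign of the 4 estimates other than that of CAVIN2 turned with these libraries.

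Y273F control against WT control compared the lines without doxycycline. CAV1 was at -0.89 (95% interval -2.27 to 0.50), CAV2 at -0.54, CAVIN1 at -0.74, CAVIN2 at -0.20 and CAVIN3 at -0.93. No member and no gene passed edgeR's quasi-likelihood test with Benjamini-Hochberg adjustment (adjusted p = 0.991, 0% called, 445 at an unadjusted p under 0.05; DESeq2 called 0 with 471 and limma-voom 0 with 454). No member's groups separated, beside 10.9% of tested genes. Without library 2, which is WT control 2, CAV1 was at -0.11, CAV2 at 0.036, CAVIN1 at 0.27, CAVIN2 at -0.041 and CAVIN3 at 0.19. These comparisons share control libraries, so their estimates are not independent of each other.

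**Figure D4:**
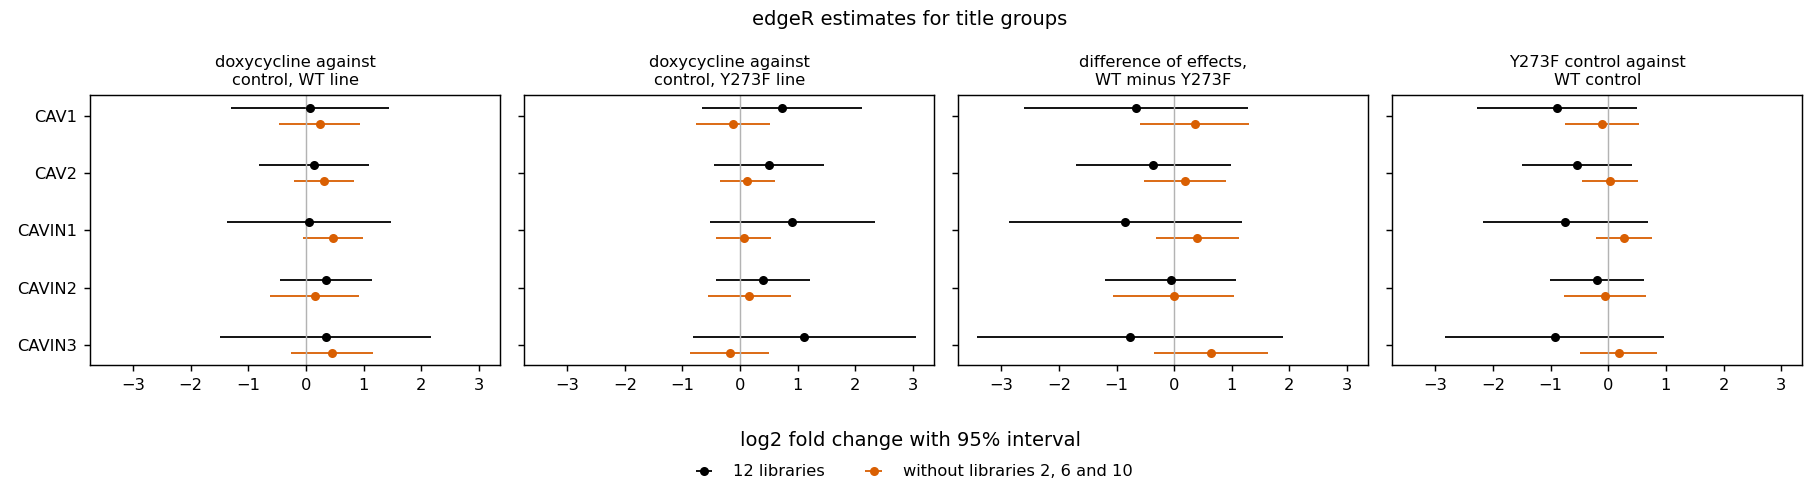
Log2 fold change of each member with its 95% interval (horizontal) in the 4 comparisons of labelled groups, for all 12 libraries and without libraries 2, 6 and 10. Every interval includes 0, and the intervals are narrower without these 3 libraries.

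Accessory proteins of caveolae include the EHD ATPases and dynamins at the neck, PACSIN membrane-bending proteins and filamin A, which ties the pit to actin. Of 15 listed genes 12 were tested, and 7 of the 12 had all of libraries 2, 6 and 10 above the other 9, with none below (18.8% of all tested genes were above). FLNA was at 356 to 402 CPM in 2/6/10 and 120 to 256 elsewhere, EHD1 at 169 to 212 and 54.8 to 91.0, and PACSIN2 at 99.5 to 113 and 62.5 to 83.5. DNM2, the ubiquitous dynamin, overlapped (49.7 to 66.2 and 59.4 to 85.2 CPM). The other 4 above, named after their values were seen, were EHD2, PACSIN3, DNM1 and ROR1, a receptor-like kinase that holds caveolin and cavin together. EHD2, the ATPase that stabilises the neck of caveolae, was at 62.2 to 74.9 CPM in 2/6/10 and 37.9 to 57.6 elsewhere. By titles' groups none was called (0 of 12). In the comparisons in the order above, 7, 9, 4 and 3 of the 12 had a positive log2 fold change, with medians of 0.04, 0.23, -0.21 and -0.17. Among all tested genes 49.6%, 51.7%, 47.6% and 46.2% were positive in the same order. The medians of all tested genes were within 0.03 of 0. The members' own medians were 0.14, 0.73, -0.66 and -0.74.

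The other lists give the surroundings of the members, to be read beside the 18.8% of all tested genes above and 16.3% below. Of 5 tested flotillin and stomatin scaffold genes, which organise lipid rafts without caveolin, none was above and FLOT1 was below in 2/6/10 (32.3 to 36.2 against 53.5 to 86.1 CPM). STOML2, STOM and FLOT2 overlapped. Of 18 tested clathrin coat and adaptor genes, which serve the other main route of endocytosis, 12 were above and 1 below. CLTC, the clathrin heavy chain, was at 599 to 645 CPM in 2/6/10 and 502 to 570 elsewhere, PICALM at 179 to 197 and 90.2 to 123. Of 12 tested receptor, signalling and cholesterol handling genes 5 were above and 2 below. EGFR was at 154 to 178 CPM in 2/6/10 and 46.9 to 81.3 elsewhere, SCARB1 at 257 to 283 and 164 to 199, and TGFBR2 was lower (151 to 161 against 168 to 213). None of these lists had a called gene in the 4 comparisons of labelled groups.

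**Figure D5:**
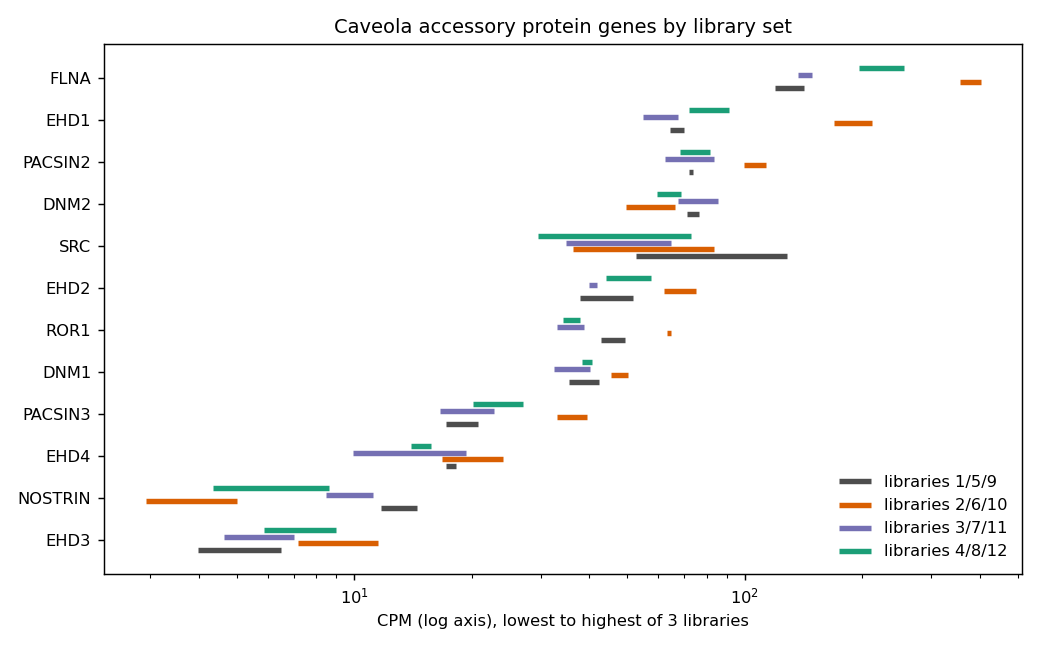
Level of the caveola accessory protein genes (CPM, log axis, horizontal), with each bar spanning the lowest to the highest of the 3 libraries of a set. In 7 genes the bar of libraries 2, 6 and 10 is above those of the other sets, including FLNA (356 to 402 CPM).

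Markers of other cell types were read beside the members. The endothelial markers summed to at most 1.07 CPM in any library, with VWF, KDR, ERG, CLDN5 and EMCN at 0 counts in all 12, and the adipocyte markers to at most 0.586 CPM. The 8 fibroblast markers summed to 161 to 222 CPM in 2/6/10 and to 18.0 to 39.3 elsewhere, mostly COL1A1 (136 to 197 CPM in 2/6/10). LUM (11.4 to 13.7 against 0 to 1.57 CPM) and THY1 (7.16 to 13.2 against 1.03 to 7.11) were also higher in 2/6/10. All 3 tested markers of this list were thus above, beside 18.8% of all tested genes. COL1A2, COL3A1, DCN, PDGFRA and PDGFRB had at most 8 counts in any library and were not tested. The 6 smooth muscle markers summed to 161 to 180 CPM in 2/6/10 and 13.4 to 30.9 elsewhere. The sum in 2/6/10 was mostly 1 gene, TAGLN (121 to 137 CPM against 1.15 to 11.0 elsewhere). Of 3 tested markers of this list 2 were above, TAGLN and ACTA2 (35.1 to 36.7 against 11.6 to 23.8 CPM), beside 18.8% of all tested genes. CNN1 overlapped (1.07 to 4.73 against 0 to 1.60 CPM). MYH11 and MYOCD had at most 9 counts in any library and were not tested, and DES was at 0 counts. The 7 markers of alveolar type I cells, a lung cell type rich in caveolae, summed to 83.0 to 92.5 CPM in 2/6/10 and 166 to 230 elsewhere. That sum was mostly EMP2 (71.8 to 79.7 against 162 to 227 CPM), while RTKN2, the other tested marker of this list, was higher in 2/6/10 (8.95 to 12.1 against 2.54 to 5.08), with PDPN and CLIC5 at 0 counts. The 9 alveolar type II markers, of the cell type that A549 cells are often taken to model, summed to 16.5 to 23.3 CPM, with SFTPB and SLC34A2 at 0 counts. The 6 epithelial markers summed to 10257 to 13694 CPM in 2/6/10 and 3685 to 5659 elsewhere, mostly KRT18, KRT8 and KRT7. CDH1, E-cadherin, was lower in 2/6/10 (24.5 to 30.5 against 44.1 to 67.0 CPM), and EPCAM was at 4.65 to 6.75 CPM against 4.79 to 32.5. The part of any of these in the members' levels was not tested.

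Genes beside the members on the chromosome were read by a rule added after the data were seen, taking the 2 nearest tested protein-coding genes on each side. Of 16 such genes that are not members, 10 had 2/6/10 above the other 9 and 0 below, beside 18.8% and 16.3% of tested genes. At the caveolin locus, TES, a focal adhesion protein, was at 88.8 to 103 CPM in 2/6/10 and 40.8 to 66.8 elsewhere, and MET, a receptor tyrosine kinase on the other side of CAV1, overlapped (261 to 276 and 198 to 268). CAPZA2, an actin capping protein beyond MET, was again above (93.8 to 103 against 66.0 to 91.4). Beside CAVIN1, STAT3 was at 248 to 272.7 CPM in 2/6/10 and 153 to 181 elsewhere.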

How the data were processed

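Per the labels' protocols, the 12 libraries were prepared with the QuantSeq FWD V2 kit, which reads the 3′ ends of transcripts. Reads were aligned with STAR to GRCh38.p14, per the submitters' processing notes. Annotation release, STAR version and use of molecular identifiers were not given in the sources used here. Raw counts per gene were deposited by the authors as a merged table of 40605 rows and as files per library. For all 5 members the merged table equalled the transcript-strand counts. Rows with a repeated symbol (1212) were kept apart. Reads assigned to no gene, 35.5% to 43.2% of a library, stayed out of totals and tests. Opposite-strand counts were at most 0.375% of either-strand counts for any member.

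Groups were taken from the titles. Low genes were removed with filterByExpr (minimum count 10), and libraries were scaled with TMM. Genes were tested with edgeR 4.0.16 (R 4.3.3; glmQLFit, glmQLFTest) over all 12 libraries with a mean per group, and called at a Benjamini-Hochberg adjusted p under 0.05 over 13047 genes. Log2 CPM used a prior count of 2. DESeq2 1.42.0 and limma-voom (limma 3.58.1) were alternatives, beside other scalings, filters, count tables, sample choices and a replicate block. The fitting was tested on simulated data with 4-fold and 2-fold changes. In the 4 comparisons, in the order given above, 79%, 75%, 44% and 66% of 4-fold changes were called. Of 2-fold changes 30%, 20%, 3% and 22% were called, so most changes of that size would be missed. Poisson and binomial intervals and floors cover counting error only. The intervals and SE of log2 fold changes come from the edgeR fit and include the spread between libraries.

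Members and lists were chosen with earlier results of these data known. Named genes were the members, DYRK1B, the 4 list genes with the highest mean where fewer than 2 were called, undetected list genes, and the 3 genes closest to each member in pattern.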

Additional observations from a re-analysis of the deposited data

How the results depend on the processing

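No member passed the threshold under any of 11 settings other than leaving out single libraries (0 of 215 values called, smallest adjusted p 0.883), and 10 values changed sign. With limma-voom the difference was -0.41 for CAV1, -0.20 for CAV2, -0.45 for CAVIN1 and 0.12 for CAVIN3, doxycycline in the WT line gave 0.22 for CAV2, 0.23 for CAVIN1 and 0.52 for CAVIN3, doxycycline in the Y273F line gave 0.40 for CAVIN3, and Y273F control against WT control gave -0.45 for CAVIN1 and -0.41 for CAVIN3. Without libraries 2, 6 and 10, doxycycline in the Y273F line gave -0.12 for CAV1 and -0.18 for CAVIN3, the difference gave 0.36 for CAV1, 0.18 for CAV2, 0.40 for CAVIN1 and 0.64 for CAVIN3, and Y273F control against WT control gave 0.030 for CAV2, 0.27 for CAVIN1 and 0.18 for CAVIN3. Leaving out single libraries gave, for doxycycline in the WT line, -0.54 to 0.85 (CAV1), -0.27 to 0.72 (CAV2), -0.54 to 1.07 (CAVIN1) and -0.66 to 1.46 (CAVIN3), with signs turning without WT control 1, WT control 3 or WT doxycycline 3. In the Y273F line it gave -0.12 to 1.05 (CAV1), 0.11 to 0.76 (CAV2), 0.06 to 1.24 (CAVIN1), 0.14 to 0.63 (CAVIN2) and -0.19 to 1.53 (CAVIN3), with CAV1 and CAVIN3 turning without Y273F doxycycline 1. The difference ran from -1.25 to 0.18 (CAV1), -0.75 to 0.22 (CAV2), -1.43 to 0.17 (CAVIN1), -0.38 to 0.26 (CAVIN2) and -1.75 to 0.53 (CAVIN3), turning without WT control 2 for all 5 and without Y273F doxycycline 1 for all but CAVIN1. CAVIN2 also turned without WT control 3, WT doxycycline 2 or Y273F control 1. Y273F control against WT control ran from -1.21 to -0.11 (CAV1), -0.78 to 0.036 (CAV2), -1.07 to 0.27 (CAVIN1), -0.43 to -0.041 (CAVIN2) and -1.30 to 0.19 (CAVIN3), with CAV2, CAVIN1 and CAVIN3 turning without WT control 2. Genes called ran from 0 to 1 in the Y273F line, the difference and the control comparison: leaving out Y273F control 2 gave SLX1B, leaving out Y273F doxycycline 2 gave RPL32P18, and leaving out Y273F doxycycline 3 gave FKBP1C. With library totals alone, the log2 ratio of the lowest of 2/6/10 over the highest of the other 9 for CAV1 was 0.95, against 0.87 with TMM. The cause of these changes was not tested.

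The correlation of deviations was over 0.1 in 3 of 18 same-numbered pairs (range -0.69 to 0.57). The highest correlation, 0.81, was between WT control 2 and WT doxycycline 3, which differ in replicate number and belong to the same library set. Since labels may have been exchanged, a shared replicate number may not mark partners, so these values cannot decide whether libraries were paired. The main fit used no pairing. With the replicate block 0 genes were called in the 4 comparisons (73, 113, 78 and 282 at an unadjusted p under 0.05), CAVIN1 was at 0.19 for doxycycline in the WT line, the CAVIN2 difference was -0.09, and CAVIN3 was at 1.05 for doxycycline in the Y273F line. A fit of only the groups compared does not exist for the difference, which needs all 4. Depth limits CAVIN3 most, with 22 counts in library 8.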
